A study of Mus musculus with 4 samples.

Results

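The cells described here are the Col2a1-rich cells of wild-type mouse epiphyses at postnatal days 13 and 19, and the question is which genes differed in level between the 2 ages. Col2a1 encodes the main collagen of cartilage. The cells were selected on measured values: a cell was taken when its barcode had 500 or more genes, at most 15% mitochondrial UMIs, 0 UMIs of Ptprc (the blood cell gene for CD45) and Col2a1 at 100 or more per 10000 UMIs. The rule gave 4541 cells at day 13 and 1088 at day 19, which is 5629 of the 18191 barcodes of both wild-type libraries and of 39898 barcodes in the series. They were 56.4% of barcodes at day 13 and 10.7% at day 19, so the day 19 values rest on fewer cells. Between 90 and 100 Col2a1 UMIs per 10000 lay 47 and 8 cells, just outside the rule, and between 100 and 110 lay 50 and 5 cells, just inside it.

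The epiphysis is the cartilage end of a growing long bone. Its surface becomes articular cartilage, whose superficial cells secrete the lubricant encoded by Prg4, while the growth plate below it holds resting, dividing and hypertrophic chondrocytes, the last marked by Col10a1. In young mice a secondary ossification centre forms inside the epiphysis in these weeks, and blood vessels, marrow and osteoblasts enter it. Growth slows at the same time, and a set of imprinted and fetal growth genes is known to decline in many organs of the young mouse.

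Epiphyses of tibia and femur were dissected, digested with Liberase and captured on the Chromium version 3 system, a droplet method that tags each RNA molecule with a unique molecular identifier (UMI). There was 1 library for each genotype and age: wild type at postnatal day 13, wild type at day 19, and Sox9fl:fl AcanCreERT2/+ at days 13 and 19. The mutant carries floxed Sox9 and a tamoxifen-inducible Cre at the Acan locus, which is active in chondrocytes. Its libraries are used only to set the same ages side by side, and its tamoxifen schedule, the strain and the number of mice in a library are not stated in the labels. With 1 library at each age no test was possible, and every interval covers counting error only.

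Wild-type libraries held 74011576 and 70507107 UMIs, of which 59220796 and 20131922 were in the Col2a1 cells. A Col2a1 cell had a median of 11618 UMIs and 2614 genes at day 13, and 16722.5 UMIs and 3363 genes at day 19. The wild-type libraries shared 20 barcodes, 1 of them a Col2a1 cell in both. Barcodes with a UMI of Ptprc served as the background of blood cells. There were 671 at day 13 and 2090 at day 19, with medians of 3619 and 4848 UMIs. After thinning each cell to 2000 UMIs, Acan, the gene of the large cartilage proteoglycan, had a UMI in 98.5% and 97.3% of the Col2a1 cells at days 13 and 19, and Col9a1, a cartilage collagen, in 99.0% and 96.8%. Nearly all the cells taken thus also held RNA of these further cartilage genes, which does not by itself give the identity of each cell. In Ptprc-positive barcodes the shares were 47.3% and 15.4% for Acan and 52.1% and 15.99% for Col9a1, so cartilage RNA was found in barcodes with blood cell RNA in both libraries, in a larger share at day 13. Whether free RNA or doublets gave it was not tested.

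Most genes had like levels at both ages. UMIs were summed over the cells of a library and scaled to CPM (counts per 1000000), and 6915 genes at 10 CPM or more in the higher library were compared. Of these, 6290 (91.0%) lay within 1.5-fold. At day 19, 142 genes (2.05%) were 2-fold or more higher and 37 genes (0.535%) 2-fold or more lower, with a counting interval that left out no change, 2.59% either way. At 1.5-fold, a second limit chosen after the values were seen, 475 (6.87%) were higher and 150 (2.17%) lower, 9.04% either way. The median log2 ratio of day 19 over day 13 was 0.13 over all measured genes. TMM scaling moved it to 0.006 and gave 98 higher and 53 lower genes, and weighting each cell equally gave 131 and 61. List medians below should be read against that 0.13. The members of all 39 lists were chosen with earlier results of these data known. List counts below, set beside the share of all genes, are therefore descriptions and show no enrichment. Of the 142 higher genes, 88 had a higher CPM in the Ptprc-positive barcodes of the day 19 library than in the Col2a1 cells, and 11 of the 37 lower genes were likewise higher in those barcodes at day 13. The same share over all 6915 measured genes was not counted, so no excess can be read from these counts.

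**Figure D1:**
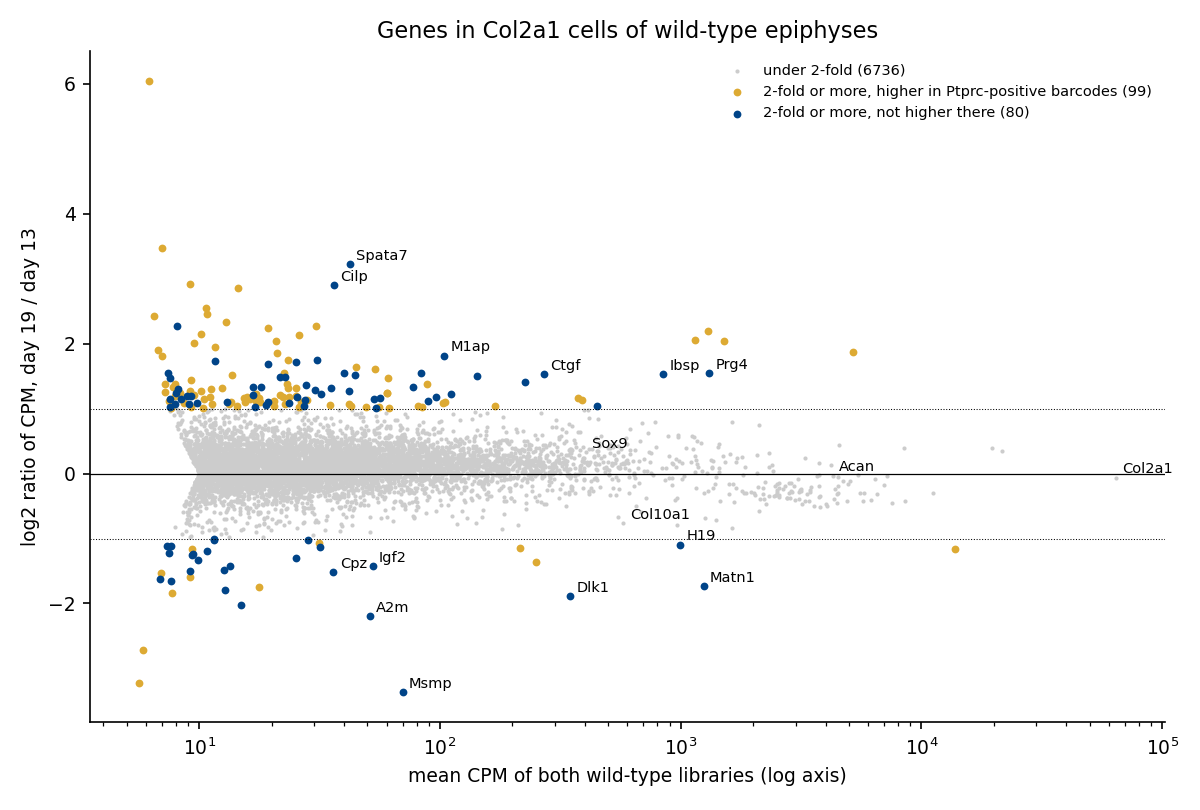
Log2 ratio of CPM, day 19 over day 13, against the mean CPM of both wild-type libraries (log axis) for 6915 genes summed over Col2a1 cells; dotted lines mark 2-fold. Of the coloured genes past 2-fold, 99 had a higher level in Ptprc-positive barcodes and 80 did not; Spata7 and Cilp lie highest and Msmp lowest among the named ones.

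The genes named first are those past 2-fold, at 50 CPM or more, whose level was not higher in the Ptprc-positive barcodes. Among them 15 were taken as highest by the bound of the counting interval nearest 0, and 7 met the same rule as lower. The levels at both ages are plotted with the ratios in both genotypes.

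**Figure D2:**
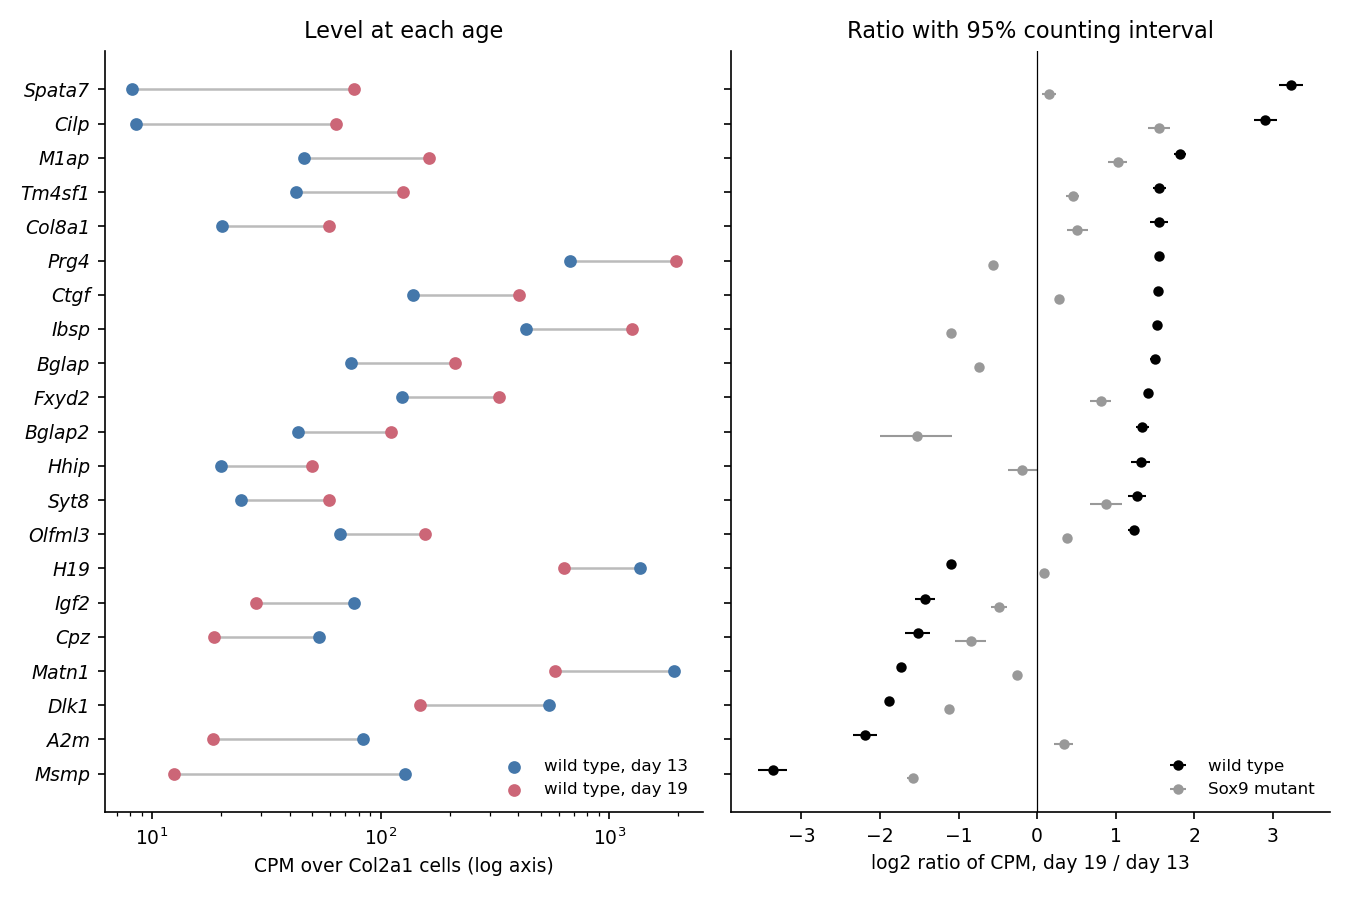
Left, CPM (log axis) over Col2a1 cells of wild-type mice at day 13 (blue) and day 19 (red) for the ranked genes reported here; right, log2 ratio of day 19 over day 13 with its 95% counting interval in wild type (black) and Sox9 mutant (grey). Ibsp, Bglap, Bglap2, Prg4 and Hhip lie right of 0 in wild type and left of 0 in the mutant, Hhip at -0.19 there. A2m and H19 lie left of 0 in wild type and right of 0 in the mutant. Bglap2 was under 10 CPM in both mutant libraries, with 196 UMIs at day 13 and 53 at day 19.

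Imprinted growth genes and a cartilage matrix gene were among the 7 ranked genes lower at day 19, of which Msmp and A2m had the lowest ratios. Dlk1 (chr12:109452823-109463336, GRCm38), a membrane protein of immature mesenchymal cells encoded in an imprinted cluster, had 545 CPM at day 13 and 148 at day 19, 3.68-fold lower (log2 ratio -1.88, 95% counting interval -1.94 to -1.83). Igf2, the fetal insulin-like growth factor, had 76.6 and 28.6 CPM, 2.68-fold lower. H19, the long noncoding RNA next to it on chromosome 7, had 1358 and 637 CPM, 2.13-fold lower. Gpc3, a cell surface glypican that restrains growth, had 19.8 and 5.71 CPM.

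The list of imprinted and fetal growth genes had 20 members, 15 of them measured. None was 2-fold higher, 4 were 2-fold lower (Dlk1, Gpc3, Igf2 and H19) and 8 were 1.5-fold lower, against a background of 0.535% and 2.17% of all genes. The list was chosen with earlier results of these data known, so these counts are a description. The median log2 ratio of the 15 was -0.69, and 12 of them were lower at day 19. Meg3, a noncoding RNA of the Dlk1 cluster, had 1739 CPM at day 13 and 1065 at day 19. Plagl1, a zinc finger factor known to control other imprinted genes, had 269 and 155 CPM, and Cdkn1c, an imprinted inhibitor of cyclin-dependent kinases, had 1553 and 965. Peg3 had 603 and 478 CPM. Grb10 with 187 and 192 CPM and Gnas with 2395 and 2459 were close to level, so the list did not move as 1 block. Hmga2, Lin28b, Mycn, Igf2bp1 and Igf2bp3 were under 10 CPM in both libraries.

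Matn1 (chr4:130944385-130955475) encodes matrilin-1, a filament-forming protein of epiphyseal and growth plate cartilage. Its level was 1917 CPM at day 13 and 578 at day 19, 3.32-fold lower (log2 ratio -1.73, interval -1.76 to -1.70). Its relative Matn4 had 223 and 145 CPM, while Matn3 had 1303 and 1387. Among 13 measured cartilage glycoproteins Matn1 alone was 2-fold lower and Cytl1, a small secreted protein of chondrocytes, alone 2-fold higher, with 56.3 and 122 CPM, against 0.535% and 2.05% of all genes. Within cells low in Prg4, Col10a1 and Matn1, Cytl1 had a log2 ratio of -1.19.

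Msmp, a small secreted protein, showed the lowest ratio of the ranked genes. It had 128 CPM at day 13 and 12.4 at day 19, 10.3-fold lower, and at day 13 the 5% of cells with the highest Msmp held 99.2% of its UMIs. A2m, a protease inhibitor, had 84.0 and 18.4 CPM. Cpz, a carboxypeptidase with a Wnt-binding domain, had 53.5 and 18.7 CPM.

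Genes of the superficial zone were higher at day 19. Prg4 (chr1:150449412-150466165), which encodes lubricin, had 672 CPM at day 13 and 1962 at day 19, 2.92-fold higher (log2 ratio 1.55, interval 1.53 to 1.57). Cilp (chr9:65265180-65280605), a matrix protein of mature articular cartilage, had 8.53 and 63.8 CPM, 7.49-fold higher. Thbs4, a thrombospondin of connective tissue matrix, had 11.7 and 38.6 CPM, and Creb5, a transcription factor known to promote Prg4 in superficial cells, had 15.1 and 32.1. Crip1 had 243 and 534 CPM, but its level in Ptprc-positive barcodes was higher, at 1056 and 1106 CPM. Of 9 measured members 5 were 2-fold higher and 8 were 1.5-fold higher, against 2.05% and 6.87% of all genes, and their median log2 ratio was 1.09. Vit with 95.2 and 184 CPM and Clu with 158 and 256 were among the 8. After thinning, 2298 and 63 cells had no UMI of 5 blood genes (S100a8, S100a9, Cd79a, Igkc and the haemoglobin gene Hbb-bs). There Prg4 had a log2 ratio of 0.05, Cilp of -1.60 and Thbs4 of -0.98, so these differences were not seen in that small subset.

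Further genes among the 15 highest belonged to no list with a shared direction. Ctgf, a secreted matricellular protein, had 139 CPM at day 13 and 403 at day 19, 2.90-fold higher, whereas its family member Cyr61 had 237 and 314. Tm4sf1, a membrane protein, had 42.5 and 125 CPM, Col8a1, a short-chain collagen, 20.3 and 59.4, and Olfml3, a secreted olfactomedin-domain protein, 66.6 and 156. M1ap had 46.0 and 162 CPM and Syt8 24.6 and 59.4.

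Genes known from mineralizing bone and hypertrophic cartilage did not share 1 direction. Ibsp (chr5:104299171-104311469), the bone sialoprotein that nucleates mineral, had 434 CPM at day 13 and 1255 at day 19, 2.89-fold higher. Bglap (chr3:88383501-88384464), osteocalcin, had 74.3 and 210.4 CPM, 2.83-fold higher, and its near-identical neighbour Bglap2 had 43.7 and 110.5, so reads of the pair may have been split between them. Spp1, osteopontin, had 267 and 528 CPM. Fxyd2, a regulatory subunit of the sodium pump, had 124 and 329 CPM, and Ank, a membrane transporter that limits mineral by exporting pyrophosphate, had 17.7 and 43.1. Col10a1 was lower, with 729 and 428 CPM (log2 ratio -0.77, interval -0.80 to -0.73), as was Ihh, the hedgehog ligand of prehypertrophic cells, with 65.3 and 55.4. Runx2, the master factor of bone formation, had 49.2 and 47.3 CPM, and Sp7, which acts after it, 16.1 and 11.4. Of 19 measured hypertrophic genes 3 were 2-fold higher and none 2-fold lower, and of 10 osteoblast genes 3 were 2-fold higher, namely Ibsp, Bglap and Bglap2, against 2.05% of all genes higher and 0.535% lower.

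Few cells carried the osteoblast genes. The 5% of Col2a1 cells with the highest share held 94.8% of Bglap UMIs at day 13 and 97.2% at day 19, and 91.7% and 87.7% of Ibsp UMIs. After thinning, Ibsp had a UMI in 10.9% of cells at day 13 and 16.1% at day 19, against 5.04% and 2.66% of Ptprc-positive barcodes. Bglap had one in 2.98% and 3.76%, with intervals of 2.50 to 3.54% and 2.70 to 5.08% that overlap. Without the 5% of barcodes with the highest doublet scores, the log2 ratio of Bglap was 0.80 and that of Bglap2 0.85, both under 2-fold, while that of Ibsp was 1.55. The summed osteoblast markers Bglap, Bglap2, Ibsp, Col1a1 and Dmp1 stood at 2644 and 2755 CPM, since Col1a1, the collagen of bone, had 2090.3 and 1174. The part of doublets or free osteoblast RNA in these values was not tested.

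The promoters of this pair are shown because both genes were higher at day 19 in wild type and lower in the mutant. RefSeq promoter sequences (GRCm38.p6) matched 15 of the 22 ranked genes, and each run below is the 100 bases before the start site on the gene's own strand, 5′ to 3′. Capitals mark TATAAA or its reverse complement TTTATA, the TATA box letters, and ACAAT or ATTGT, the core of SOX sites. Ibsp has chr5:104299187-104299286 on the plus strand and Bglap chr3:88384467-88384566 on the minus strand.
Ibsp: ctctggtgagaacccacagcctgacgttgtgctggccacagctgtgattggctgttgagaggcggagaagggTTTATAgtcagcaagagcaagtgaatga
Bglap: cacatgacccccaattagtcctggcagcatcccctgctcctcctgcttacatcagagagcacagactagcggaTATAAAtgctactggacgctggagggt
Cilp, Dlk1 and Matn1 are set beside them as the leading superficial, imprinted and matrilin genes, at chr9:65265080-65265179, chr12:109452723-109452822 and chr4:130944285-130944384, each on the plus strand.
Cilp: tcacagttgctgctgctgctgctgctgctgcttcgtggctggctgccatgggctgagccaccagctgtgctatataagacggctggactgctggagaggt
Dlk1: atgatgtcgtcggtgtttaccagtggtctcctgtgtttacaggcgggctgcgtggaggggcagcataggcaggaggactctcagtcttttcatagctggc
Matn1: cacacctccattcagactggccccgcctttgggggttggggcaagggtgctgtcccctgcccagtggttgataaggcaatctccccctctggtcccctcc
In these 100 bases the TATA letters were found, on either strand, in Ibsp and Bglap, and in 5.56% of all 32851 promoters of the table. The SOX letters were found in none of the 5 windows and in 12.1% of all promoters. In the 250 bases before the start site, Ibsp and Bglap both hold the SOX letters, as do 27.7% of all promoters, and Cilp, Dlk1 and Matn1 do not. A match of letters is a description of the sequence and not a site in use.

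Cell cycle genes were higher at day 19. Mki67, the Ki-67 antigen of dividing cells, had 35.9 CPM at day 13 and 85.0 at day 19, 2.37-fold higher (log2 ratio 1.24, interval 1.15 to 1.34). Top2a, the topoisomerase of dividing cells, had 67.0 and 143 CPM, and Rrm2, a subunit of ribonucleotide reductase, 13.4 and 33.5. Of 20 measured members 8 were 2-fold higher and 16 were 1.5-fold higher, against 2.05% and 6.87% of all genes, and none was lower. Their median log2 ratio was 0.91. Pcna, a clamp of DNA replication, had the smallest ratio, with 31.0 and 33.8 CPM.

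The share of cells with cell cycle RNA moved with these levels. Cells with 20 or more UMIs of the list per 10000 were 5.73% of Col2a1 cells at day 13 (exact binomial interval 5.07 to 6.44%) and 11.8% at day 19 (9.91 to 13.8%). Within them Top2a, which the limit itself uses, stood at 759 and 749 CPM. After thinning, Mki67 had a UMI in 3.77% and 8.18% of Col2a1 cells. In Ptprc-positive barcodes the shares were 15.1% and 32.4%, higher at both ages, and the Mki67 level there was 147 and 359.9 CPM. Among Col2a1 cells with no UMI of 4 blood genes (S100a8, S100a9, Cd79a and Igkc) after thinning, the log2 ratio of Mki67 was 1.31, and without the highest doublet scores it was 1.15, while Top2a without those scores was at 0.93, under 2-fold.

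The core cartilage matrix was close to level. Col2a1, which the rule used, had 65697 CPM at day 13 and 62970.4 at day 19. All 7 cartilage collagens were slightly lower, with log2 ratios of -0.21 for Col9a1 to -0.04 for Col9a3 and a median of -0.08, and none passed 1.5-fold. With TMM scaling the median was -0.20. Acan had 4337 and 4248 CPM, and Hapln1, the link protein that binds it to hyaluronan, 3529.8 and 3955. Of 7 proteoglycan aggregate genes Cd44, the hyaluronan receptor, was 2-fold higher with 9.81 and 21.1 CPM, but it stood at 158 and 106 CPM in Ptprc-positive barcodes. Comp had 4037 and 4414 CPM and Mgp, an inhibitor of calcification, 7352 and 9615. Of 14 genes for sulfation and glycosaminoglycan synthesis Chst3 was 2-fold higher, from 10.1 to 22.4 CPM, and 12 had a ratio above 0.

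Sox9, the master factor of chondrocytes, had 356 CPM at day 13 and 450.2 at day 19 (log2 ratio 0.34, interval 0.30 to 0.37). Its partners Sox5 with 152 and 195 CPM and Sox6 with 65.3 and 78.4 were likewise higher by less than 1.5-fold. None of the 6 measured Sox genes passed 1.5-fold.

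Secretory and metabolic lists moved less and in opposite directions. Of 20 genes for folding in the endoplasmic reticulum, 1 was 2-fold and 6 were 1.5-fold higher, against 2.05% and 6.87% of all genes, and 16 had a ratio above 0, with a median of 0.28. Serpinh1, the collagen chaperone HSP47, had 1583 and 2646 CPM, and Hsp90b1, another chaperone there, 508 and 867. Atf4, a factor of the stress response, went the other way with 473 and 393 CPM. Of 21 genes of sterol and fatty acid synthesis, 19 had a ratio under 0, and the median was -0.33. Of them 3 were 1.5-fold lower, against 2.17% of all genes. Fasn, fatty acid synthase, had 96.2 and 60.4 CPM. Srebf1 had 33.6 and 53.0 CPM and was the 1 member 1.5-fold higher. None of the 21 passed 2-fold. In cells with Prg4 at 20 or more per 10000 UMIs, described below, the list did not share this direction. There 14 of 20 measured members were higher and 6 lower, with a median of 0.10. Glycolysis and hypoxia genes had a ratio above 0 in 19 of 21 and a median of 0.28, with 4 of them 1.5-fold higher against 6.87% of all genes, Eno1 from 97.3 to 174 CPM and Hk2 from 61.1 to 102 among them. Oxidative phosphorylation genes had a median of 0.18, near that of all genes.

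Signalling lists were mixed, and their counts stand against 2.05% higher and 0.535% lower genes at 2-fold and 6.87% and 2.17% at 1.5-fold. In the hedgehog and PTHrP list 1 of 9 measured genes passed 2-fold, Hhip, a binding inhibitor of hedgehog ligands, with 20.1 and 50.3 CPM, while Ptch1 had 64.4 and 75.5 and Gli1, both known as readouts of hedgehog input, 20.3 and 14.3. Of 16 Wnt genes none passed 2-fold, 5 were 1.5-fold higher and 4 lower. Wif1, a secreted Wnt inhibitor, was higher with 276 and 546 CPM, whereas Frzb with 184 and 116 and Sfrp1 with 74.1 and 46.8, also secreted inhibitors, were lower, as was the ligand Wnt4 with 106 and 69.7. Of 23 BMP and TGF-beta genes 1 passed 2-fold, Chrdl1, a BMP antagonist, with 15.7 and 35.5 CPM, and Grem1, another antagonist, had 21.5 and 36.7. Of 6 measured FGF genes Fgf2 was 1.5-fold higher, with 21.3 and 32.3 CPM. In the IGF and growth hormone list, beside Igf2, the growth hormone receptor Ghr was lower with 49.97 and 27.1 CPM, and Igf1r with 75.7 and 52.6.

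Resting zone genes had a median of 0.38 over 11 members. Gas1, a hedgehog co-receptor, alone was 2-fold higher, at 59.0 and 134 CPM, against 2.05% of all genes. The clock list held 3 genes that were 2-fold lower out of 13, against 0.535% of all genes. They were Tef with 15.03 and 6.61 CPM, Dbp with 12.9 and 5.81 and Per3 with 10.03 and 4.62, output and period genes of the circadian clock. The labels do not state the hour of dissection. Mt1, a metallothionein, had 294 and 603 CPM, and Mmp3, a matrix protease, had 2.79 and 13.4, 4.81-fold higher from a low level.

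**Figure D3:**
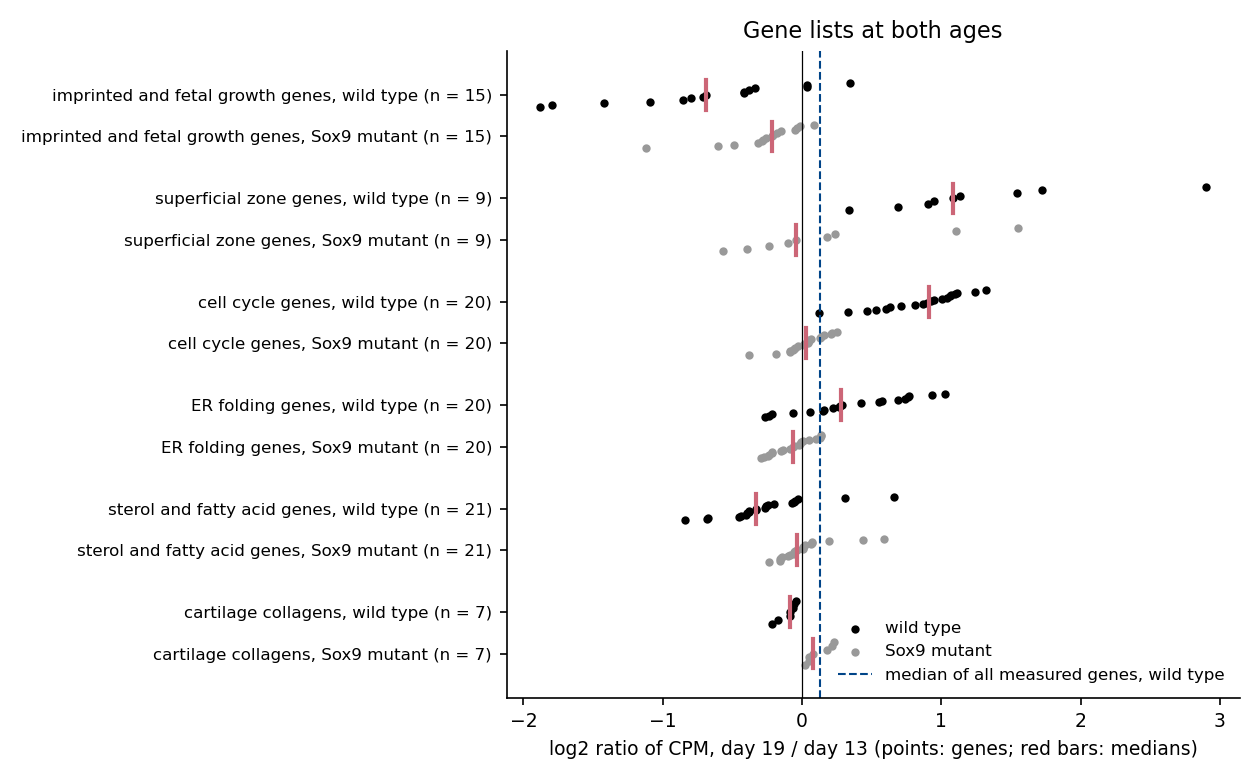
Log2 ratio of CPM, day 19 over day 13, for each measured gene (points) of 6 lists in wild type (black) and Sox9 mutant (grey), with list medians as red bars and the wild-type median of all genes, 0.13, as a dashed line. In wild type the imprinted list has a median of -0.69, superficial genes 1.09 and cell cycle genes 0.91; in the mutant the same medians are -0.22, -0.04 and 0.03.

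A level summed over cells can also differ because the mix of cells differs, so the cells were divided by zone genes. These are ranges of 1 gene and not cell types. Cells with Prg4 at 20 or more per 10000 UMIs and Col10a1 below that were 302 at day 13, 6.65% (exact binomial interval 5.94 to 7.41%), and 177 at day 19, 16.3% (14.1 to 18.6%). In the same libraries 112 and 48 cells lay within 2-fold of that limit. Cells with Col10a1 at 20 or more were 142 at day 13, 3.13% (2.64 to 3.68%), and 22 at day 19, 2.02% (1.27 to 3.05%). The rest were 4097 and 889 cells. Among the rest, cells with Matn1 at 20 or more, a limit added after the values were seen, were 27.7% of Col2a1 cells at day 13 and 5.24% at day 19. The day 19 cells thus held relatively more cells past the Prg4 limit and fewer past the Matn1 limit. Both genes also differed with age in the summed levels that these limits were meant to divide. The shares therefore cannot tell a difference in level within cells from a difference in the mix of cells. Dissection and digestion also set which cells are captured, and their part was not tested.

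**Figure D4:**
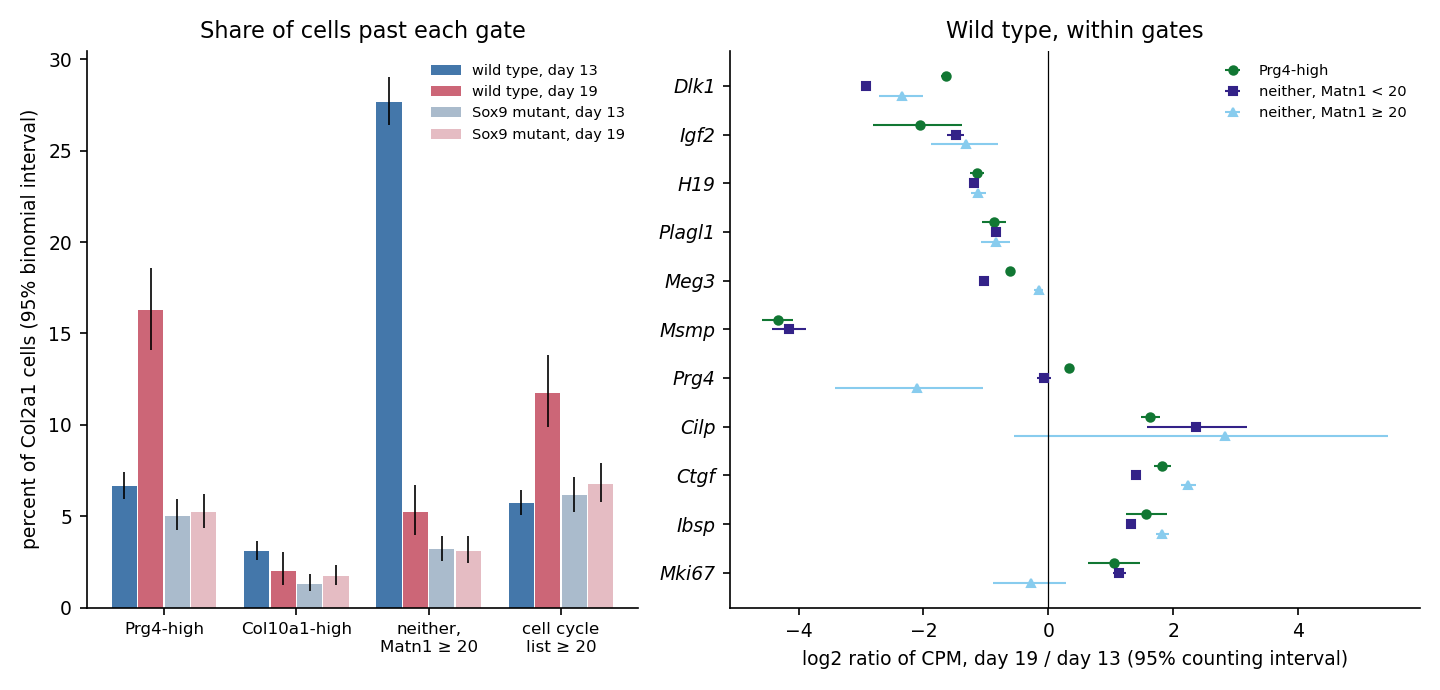
Left, percent of Col2a1 cells past each limit of 20 UMIs per 10000, by library, with 95% binomial intervals; right, log2 ratio of CPM, day 19 over day 13, with 95% counting intervals for 11 genes within 3 ranges of wild-type cells (Msmp at Matn1 of 20 or more had 0 UMIs at day 19 and is not drawn). The wild-type Prg4-high share was 6.65% and 16.3%, and Dlk1, Igf2 and H19 lie left of 0 in all 3 ranges.

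Most imprinted genes were lower within each range. In Prg4-high cells Dlk1 had 2522 CPM at day 13 and 809.7 at day 19, and H19 had 1012 and 458. Of 16 members measured there 14 were lower and 5 were 2-fold lower, against 2.47% of genes in that range, with a median log2 ratio of -0.63. In cells past neither limit 13 of 15 members were lower and 4 were 2-fold lower, against 0.569%, with a median of -0.51. In the subset of these with Matn1 under 20, Dlk1 had 586 and 77.6 CPM and H19 1567 and 688, and 5 of 15 members were 2-fold lower, against 0.997% of genes there. In the subset with Matn1 at 20 or more, 57 cells at day 19, Dlk1 had 318 and 62.5 CPM and H19 1219.9 and 562, and 3 of 14 members were 2-fold lower, against 2.71%. There 10 of the 14 were lower and 4 higher, Cdkn1c among the 4 with 1570 and 2226 CPM (log2 ratio 0.50). Msmp was 20.1-fold lower in Prg4-high cells, with 1320.0 and 65.6 CPM.

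Superficial genes behaved differently by range. Prg4 itself, which set the range, had 15127 and 18986 CPM in Prg4-high cells, 1.26-fold higher, and 61.8 and 58.6 CPM in cells past neither limit with Matn1 under 20. Since Prg4 set these ranges, its ratios within them are limited by the rule. Cilp was still higher in Prg4-high cells, with 196 and 607 CPM (log2 ratio 1.63, interval 1.48 to 1.79), and Thbs4 had 163 and 359.8. Of 13 superficial genes measured in Prg4-high cells 5 were 2-fold higher, against 3.35%, with a median of 0.76. In cells past neither limit Thbs4 was lower, with 5.19 and 2.76 CPM. In Prg4-high cells Gas1 had 889 and 1020.1 CPM and Wif1 2142 and 2850.5, both under 1.5-fold apart. The resting zone list had a median log2 ratio of -0.02 there, with 4 members higher and 4 lower. Its median was 0.36 in cells past neither limit. In their subsets with Matn1 under 20 and at 20 or more it was 0.16 and -0.17.

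Ctgf was higher at day 19 in each of these 3 ranges. It had 231 and 819 CPM in Prg4-high cells, 124 and 329 in the Matn1-low rest and 142 and 672 in the Matn1-high rest. Ibsp was likewise higher in the 3, with 473 and 1182 CPM in the Matn1-low rest, where Matn1 itself had 776 and 391. Most other genes of mineralizing cartilage went the other way in Prg4-high cells, where Spp1 had 92.5 and 44.8 CPM and Fxyd2 19.1 and 3.94. Ank was higher there, with 116 and 223 CPM. Of 15 hypertrophic genes measured there 10 were lower and 5 higher, with a median log2 ratio of -1.04. Past 2-fold, 8 of the 15 were lower and 1 higher, against 2.47% and 3.35% of genes in that range. In the Matn1-high rest the log2 ratio was -0.53 for Bglap and -0.91 for Hhip. The cell cycle list was higher in 20 of 20 members in cells past neither limit, with a median of 0.93, and 8 of the 20 were 2-fold higher, against 1.82%. In the Matn1-low rest 4 of 20 were 2-fold higher, against 1.57%. In the Matn1-high rest, where 57 cells stood at day 19, the list had a median of -0.27, with 14 of 17 measured members lower and 0 of them 2-fold higher, against 4.12% of genes.

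Counting cells instead of UMIs gave the same direction for the leading genes. After thinning to 2000 UMIs, with 4323 and 1064 Col2a1 cells left, Dlk1 had a UMI in 43.1% of cells at day 13 and 18.8% at day 19. Matn1 had one in 64.8% and 28.4%, H19 in 78.5% and 51.1%, and Igf2 in 14.9% and 5.64%. Without thinning the shares for Dlk1 were 68.1% and 36.8%. In Ptprc-positive barcodes Dlk1 was found in 10.5% and 0.866%, Matn1 in 26.5% and 3.18% and H19 in 42.4% and 6.70%. At both ages the Col2a1 cells lay above this background. Ctgf went from 19.3% of cells at day 13 to 44.5% at day 19, and Prg4 from 14.4% to 22.1%, against 10.3% and 4.27% of Ptprc-positive barcodes.

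**Figure D5:**
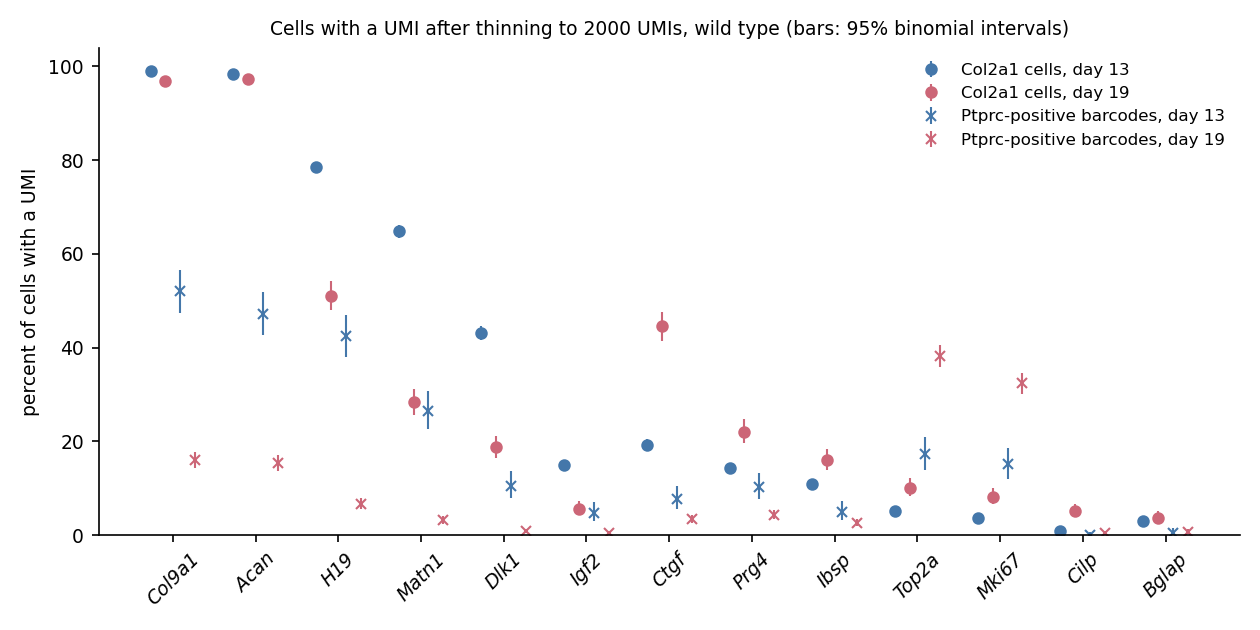
Percent of wild-type cells with a UMI of each gene after thinning to 2000 UMIs, for Col2a1 cells (dots) and Ptprc-positive barcodes (crosses) at day 13 (blue) and day 19 (red), with 95% binomial intervals. H19, Matn1, Dlk1 and Igf2 are found in fewer Col2a1 cells at day 19 and Ctgf in more, 19.3% and 44.5%; Mki67 and Top2a are found in more Ptprc-positive barcodes than Col2a1 cells.

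In Col2a1 cells of the Sox9 mutant, taken by the same rule at the same ages (2599 and 2252 cells), fewer genes differed. Of 7291 measured genes 42 (0.576%) were 2-fold higher at day 19 and 15 (0.206%) lower. Of these, 21 were also 2-fold higher in wild type and 5 also lower. The 21 include 8 erythroid and 4 neutrophil markers, which are genes of blood cells. Over 6643 genes measured in both genotypes the correlation of log2 ratios was 0.35, a description over genes that share libraries. The 31 genes lower in wild type and measured in the mutant had a ratio under 0 there in 27 cases, and the 114 higher genes a ratio above 0 in 85. The median log2 ratio of all measured genes in the mutant was -0.02, and the 114 include the erythroid and neutrophil markers named above. Whether the genotypes differ cannot be tested with 1 library each.

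Dlk1 had 560.0 and 258 CPM in the mutant, lower as in wild type, while H19 had 1170.5 and 1244. The imprinted list had a median of -0.22 there, with 14 of 15 genes lower. Matn1 stood at 285 and 239 CPM, below the wild-type level at either age. Prg4 was lower in the mutant, with 457 and 309 CPM, and the Prg4-high share was 5.04% and 5.24%. Mki67 had 45.5 and 47.2 CPM, and the cell cycle list a median of 0.03. The cartilage collagens had the opposite sign, with all 7 slightly higher and a median of 0.08. TMM scaling was not applied to the mutant. Ibsp had 5764 and 2687 CPM and Bglap 1129 and 678, higher than in wild type at each age. Both were lower at day 19 than at day 13. Bglap2 went the other way between genotypes. It was under 10 CPM at each age in the mutant, with 196 and 53 UMIs, against 43.7 and 110.5 CPM in wild type. Whether reads of Bglap and Bglap2 were split differently in the 2 genotypes was not tested, so Bglap alone is an uncertain comparison between them. The summed osteoblast markers were 14292 and 8149.8 CPM in the mutant, and their part was not tested.

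Spata7 (chr12:98628157-98669815), known as a protein of the photoreceptor cilium, had the highest ratio of the ranked genes, and its pattern follows 1 library. It had 8.17 CPM in the wild-type day 13 library and 76.5 in the day 19 library, and 73.6 and 81.8 in the mutant libraries. In Ptprc-positive barcodes of the wild type it had 24.3 and 68.5 CPM. In Col2a1 cells the wild-type day 13 library thus stood apart from the other 3. Ptprc-positive barcodes were compared in the wild type only, where the day 13 level was also below that of day 19. Lars2 had 362 and 141 CPM in wild-type Col2a1 cells and 455 and 209.7 in Ptprc-positive barcodes. In mutant Col2a1 cells it had 399.9 and 382.5 CPM, so for Lars2 the wild-type day 19 library was the lowest. Gm42418, a noncoding RNA that overlaps ribosomal RNA sequence, took 1.90% of Col2a1 cell UMIs at day 13 and 0.852% at day 19. The part of the library in these values was not tested.

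RNA of other cells differed with age as well. Haemoglobin genes took 0.374% of UMIs in Col2a1 cells at day 13 and 1.46% at day 19. The 8 erythroid markers summed to 3768 and 14715 CPM, and 8 of 8 were 2-fold higher. The 8 neutrophil markers summed to 95.9 and 279 CPM, which is 0.229% and 0.379% of their level in Ptprc-positive barcodes, and the 8 B cell markers to 73.8 and 182. S100a8, the neutrophil calprotectin gene, had 32.2 and 89.5 CPM, against 13290.3 and 23130.4 in Ptprc-positive barcodes, and with each cell weighted equally its log2 ratio was -0.38. Macrophage and osteoclast markers summed to 91.3 and 86.6 CPM, endothelial markers to 20.9 and 13.7, and fibroblast and tendon markers to 40.1 and 21.5. No marker of these lists was at 0 in either library. With cells limited to the 3905 and 775 that had no UMI of S100a8, S100a9, Cd79a and Igkc after thinning, 143 genes were 2-fold higher and 37 lower, and Dlk1 had a log2 ratio of -1.97, Matn1 of -1.69, Prg4 of 1.47 and Cilp of 3.14. That limit uses no erythroid gene. With the haemoglobin gene Hbb-bs added to it, 2298 and 63 cells were left. There Cilp had a log2 ratio of -1.60, and the difference of Prg4 was not seen, as given above.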

How the data were processed

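Single-cell libraries of 4 genotype and age groups, 1 library each, were deposited as matrices of UMI counts made by the authors with Cell Ranger 3.1.0, per the file headers, on mm10, per the submitters' processing notes, which also name Seurat 3 without a role. Neither the headers nor the labels state how barcodes were filtered or whether strand was used.

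Counts were read as deposited. Barcodes needed 500 genes or more, with a mitochondrial share of up to 15%, and Col2a1 cells were taken as described in the report. UMIs were summed per library and divided by the library's sum over those cells to give CPM. Each log2 ratio has a 95% interval from the exact conditional binomial (Clopper-Pearson), which covers counting error only. Where no UMI was found, 3 counts stood in as the floor. Genes at 10 CPM or more in the higher library were called at 2-fold with an interval that left out 0. Shares have exact binomial intervals. No p-value was computed, since 1 library stood on each side. Scrublet in scanpy 1.11.5 marked 1 of 7241 barcodes in the wild-type day 19 library, so its calls were not used and no doublets were removed. TMM factors came from edgeR 4.0.16. Python 3.11.15 with numpy 2.4.6, scipy 1.17.1 and pandas 2.3.3 did the rest, and the ratio and its interval were tested on simulated data.

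Ranked genes were at 50 CPM or more, called, and not higher in Ptprc-positive barcodes of the same library, with the 15 highest and up to 15 lowest by the interval bound nearest 0. The ranking omitted mitochondrial, ribosomal protein, haemoglobin and immunoglobulin genes, unnamed genes and those on sex chromosomes used for sexing. Each list gave the 4 members with the largest ratio, and further list members named were chosen after their values were seen. A few genes that the rule takes are not reported here. Members and all 39 lists were chosen with earlier results of these data known. Gene positions are from GENCODE on GRCm38. Cells of 1 library are not replicates.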

Additional observations from a re-analysis of the deposited data

Results flagged for a closer look

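Ibsp and Bglap moved in opposite directions with age in the 2 genotypes. The log2 ratio of day 19 over day 13 in Col2a1 cells was 1.53 in wild type and -1.10 in the Sox9 mutant for Ibsp, and 1.501 and -0.735 for Bglap. Each direction rests on 1 library at each age, and the difference between genotypes was not tested.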

How the results depend on the processing

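No paired analysis was possible because each group has 1 library and the labels carry no replicate numbers, and no library could be left out. Planned removal of Scrublet calls was not run, since the automatic threshold marked 1 of 7241 barcodes in the wild-type day 19 library and 0 of 7429 in the mutant day 13 library, against 87 of 6340 (47 of them Col2a1 cells) in wild type at day 13 and 302 of 9942 in the mutant at day 19. Of the 22 ranked genes, 12 were past 2-fold in the same direction under each of 18 alternatives and 6 had a reversed value under at least 1. The counts were 142 higher and 37 lower genes, of which 30 and 8 were listed genes. They moved to 232 and 109 (19 listed lower) in cells with no UMI of 5 blood genes after thinning. There 63 cells were left at day 19 and the log2 ratio of Prg4-high shares was 0.48 in place of 1.29. They were 506 and 263 (16 listed lower) at a minimum of 1 CPM, 44 and 10 (18 and 4 listed) at 50 CPM, and 475 and 150 (73 and 24 listed) at 1.5-fold. TMM and median of ratios scaling each gave 18 listed higher genes, and equal weighting of cells 61 lower, 13 of them listed.

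The next subsets were chosen after seeing the data. Cells of neither range with Matn1 under 20 gave 69 lower genes, with 17 listed higher and 13 listed lower. Those with Matn1 at 20 or more, 57 cells at day 19, gave 281 higher and 185 lower, 21 of them listed. Among genes past 2-fold and the 4 lists named next, ratios that changed sign without the 5 blood genes were Cilp (-1.60), Col8a1 (-0.42), Cytl1 (-1.77), Thbs4 (-0.98), Gas1 (-1.01) and the fibroblast and tendon list (0.33, and 0.0084 at 1 CPM). With Matn1 under 20 they were Prg4 (-0.076), Cytl1 (-1.19) and Thbs4 (-1.12). With Matn1 at 20 or more they were the cell cycle list (-0.27), erythroid (-0.26) and osteoblast markers (-0.50), Prg4 (-2.10), Bglap (-0.53), Bglap2 (-0.47), Hhip (-0.91), Car2 (-0.10), Hist1h1b (-2.12), Cd44 (-1.08), Cytl1 (-1.15), Chst3 (-0.052), Thbs4 (-0.24), Gas1 (-0.76), Rrm2 (-0.24), Mki67 (-0.27), Top2a (-0.69), Per3 (0.18) and Mt1 (-0.94). Genes under 2-fold changed sign there too, among them Cdkn1c (0.50), Wif1 (-0.23), Grem1 (-0.44), Fgf2 (-1.03) and Ghr (0.07), and other smaller ratios and list medians did so under 1 or more alternatives. With equal weighting S100a8 was at -0.38 and S100a9 at -0.18. In the subset with Matn1 at 20 or more, Thbs4 had no UMI at day 19 and its value is set by the floor. The cause was not tested in these cases. Depth limits mainly genes near 10 CPM and the ranges with few day 19 cells.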
